A study of Mus musculus with 62 samples.

Results

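RNA enriched from striatal neurons was compared with RNA of whole striatum in wild-type (WT) mice that had received the control virus N-Delta, using 8 of the 62 libraries of the study. The members were the 4 libraries titled as neuronal RNA-seq and the 4 titled as bulk RNA-seq of that genotype and virus, chosen by those titles alone. N-Delta is the control virus for N-ZFP, a neuronal adeno-associated virus carrying a zinc-finger protein that represses mutant Huntingtin. Both were injected into the striatum of WT and zQ175 knock-in mice at 6 months of age, and RNA was taken at 12 months. Every library of this comparison therefore came from an injected striatum, and no uninjected group was part of it. In the deposited table the bulk columns are named input and the neuronal columns IP, with the numbers 1 to 4 in both. How the neuronal RNA was isolated is not given in the sources used here, and neither is the promoter that the virus carries. Nothing in the labels says whether 1 animal gave each library, so the variation among samples that the p-values reflect may be technical. That variation was estimated from 31 libraries of 8 groups fitted together, not from these 8 libraries alone.

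The striatum is built mainly of GABAergic projection neurons, which fall into a direct pathway marked by the D1 dopamine receptor, substance P and dynorphin and an indirect pathway marked by the D2 and adenosine receptors and enkephalin. A small share of its neurons are interneurons, which use acetylcholine or GABA. Astrocytes, oligodendrocytes and their precursors, microglia and vessel cells make up the rest of the tissue, and their RNA is part of any whole-tissue library. RNAs also differ in where they sit in a cell. Most messenger RNAs are translated by ribosomes in the cytoplasm, long noncoding RNAs such as Malat1 stay largely in the nucleus, and the messengers encoded by mitochondrial DNA are made and translated inside the organelle.

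The bulk libraries held 9475429 to 11211827 counts and the neuronal libraries 10329688 to 11684286, so depth was alike. A count of 0 in a library allows a level of up to 0.257 to 0.317 CPM, the unit of levels used throughout (a gene's count relative to the total of its library), which covers counting error only. Between 23568 and 24040 genes had a count in the bulk libraries and 21712 to 22164 in the neuronal ones. Across the genes tested, TMM-scaled log2 CPM (prior count 2) correlated at 0.9858 to 0.9898 among neuronal libraries, 0.9812 to 0.9896 among bulk libraries and 0.9475 to 0.955 between the 2 kinds. Striatal identity was plain in both kinds. Ppp1r1b, which encodes the projection neuron phosphatase inhibitor DARPP-32, was at 1056, 913, 867 and 909 CPM in bulk libraries 1 to 4 and at 1996, 1792, 1655 and 1772 in neuronal libraries 1 to 4. The bulk libraries also differed among themselves, and for some genes libraries 1 and 3 lay apart from libraries 2 and 4. Syn1, the synaptic vesicle protein synapsin I, was at 124, 74, 130.4 and 72.1 CPM in bulk libraries 1 to 4. The part of this split in the results was not tested.

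Differences are given as log2 fold changes of neuronal over bulk libraries ± SE from edgeR, and a gene was called higher or lower at a Benjamini-Hochberg adjusted p under 0.05 over the 17702 genes tested. The comparison asked which transcripts the neuronal preparation holds more or less of than the tissue around it. Of the genes tested, 4652 (26.3%) were higher and 5237 (29.6%) were lower in neuronal RNA, together 55.9%. At least 2-fold lower were 3186 genes (18%), and 348 of these were at least 8-fold lower. At least 2-fold higher were 144 genes (0.813%), and no gene was 8-fold higher. A test against a change of 2-fold itself (glmTreat) left 1192 lower genes and 2 higher ones, the histone genes Hist2h2bb and Hist4h4. The count of 144 moved with the scaling, to 91 when only library totals were used and 95 when scaled on nuclear protein-coding genes, and it was 218 and 219 without bulk library 1 or 3. The libraries of the 2 kinds did not overlap for 4540 higher genes (25.6%) and 5056 lower genes (28.6%).

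**Figure D1:**
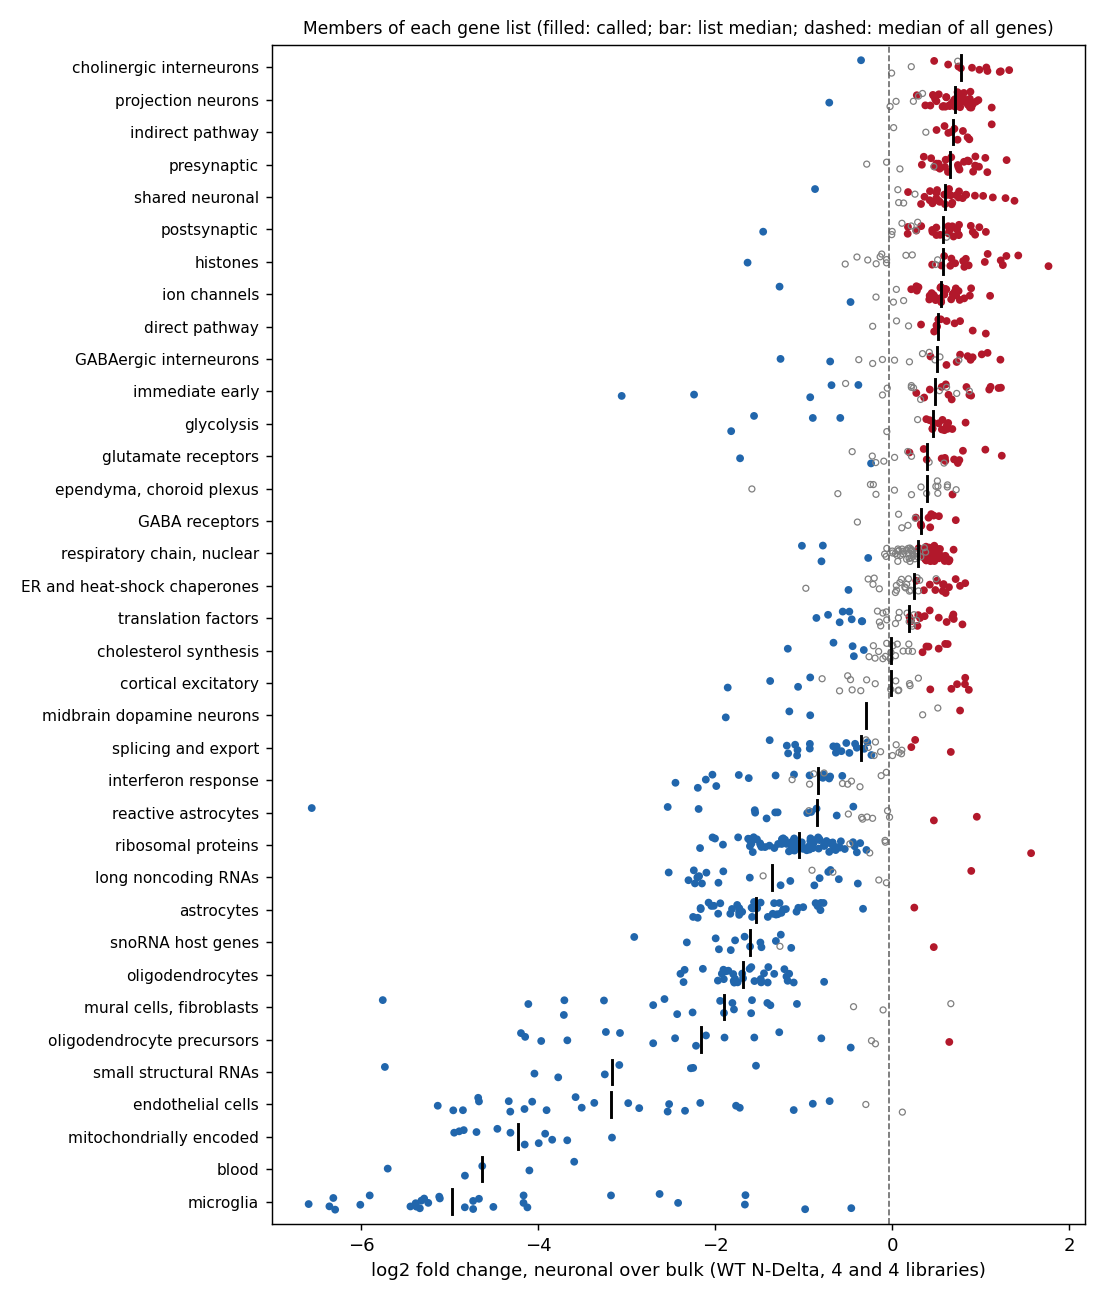
Log2 fold change of neuronal over bulk RNA (x axis) for every tested member of 36 gene lists (rows, ordered by median), 4 libraries a kind in WT N-Delta mice. Filled points passed the test, open points did not, bars are list medians and the dashed line is the median of all genes (-0.0352). Medians of the striatal neuron lists lie above 0, while microglial, blood and mitochondrially encoded genes reach far below it.

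Abundance in the tissue went with the direction. Of the 205 genes at 500 CPM or more in bulk, 149 were higher in neuronal RNA, 37 were lower and 19 were not called. In the most abundant bin of 5 equal bins of the tested genes, above 64.3 CPM in bulk, 2143 of 3541 were higher and 552 lower, with a median log2 change of 0.325. In the least abundant bin, up to 2.25 CPM, 121 of 3541 were higher and 1250 lower, with a median of -0.792. These bins use the bulk libraries of the comparison itself and are given as a description.

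Genes of striatal projection neurons were mostly higher. Of 47 tested markers 41 were higher, 1 was lower and 5 were not called, with a median log2 change of 0.707 against -0.0352 for all genes. Gpr52, the 48th marker listed, was not among the genes tested. Pde10a, a striatal phosphodiesterase of cyclic nucleotides, was at 2701, 1991, 2129.9 and 2024 CPM in the bulk libraries and at 4845, 3895, 3538 and 3707 in the neuronal ones. The groups did not overlap, and library 1 was the highest of each kind (0.85 ± 0.13, adjusted p = 5.08e-06). Ppp1r1b, whose values are given above, was higher by 0.95 ± 0.13, or 1.93-fold. Pde7b, another phosphodiesterase, was higher by 0.90 ± 0.11, Rasd2, the small GTPase Rhes, by 0.89 ± 0.11 and Dgkb, a diacylglycerol kinase, by 0.71 ± 0.10. The lower marker was Ryr1, a ryanodine receptor that releases calcium from internal stores. It was at 124, 92, 111 and 75.1 CPM in bulk and 65.7, 63.9, 62.5 and 53.6 in neuronal libraries, lower in every neuronal library (-0.71 ± 0.22, adjusted p = 0.00681).

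Both output pathways were represented. Direct-pathway markers were higher in 11 of 14 cases and lower in none (median 0.514), and indirect-pathway markers in 10 of 12 and none (median 0.686). Drd1, the D1 dopamine receptor, was at 398, 361, 338 and 408 CPM in bulk and 614, 504, 492 and 518 in neuronal libraries (0.50 ± 0.13). Tac1, which encodes substance P, was at 171, 164, 139.9 and 196 CPM in bulk and 327, 266, 251 and 296 in neuronal libraries (0.77 ± 0.13), and Pdyn, the dynorphin precursor, was higher by 0.91 ± 0.11. For all 3 genes the groups were apart. Drd2, the D2 dopamine receptor, was at 116, 95.6, 94 and 91.7 CPM in bulk and 187, 156, 144 and 146 in neuronal libraries (0.67 ± 0.10). Penk, the enkephalin precursor, was at 846, 813, 839 and 799 CPM in bulk and 1819.6, 1788, 1842 and 1734 in neuronal libraries (1.12 ± 0.15, adjusted p = 8.18e-07). Adora2a, the adenosine receptor of these neurons, was higher by 0.87 ± 0.14. Penk was the 1 gene at least 2-fold higher among the 47 markers, and its 4 neuronal libraries lay within a narrow range above all bulk libraries. Htt, the gene that carries the repeat expansion in Huntington's disease and is unexpanded in WT mice, was at 283, 256, 299 and 249.7 CPM in bulk and 438, 431, 440.2 and 408 in neuronal libraries (0.66 ± 0.09).

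**Figure D2:**
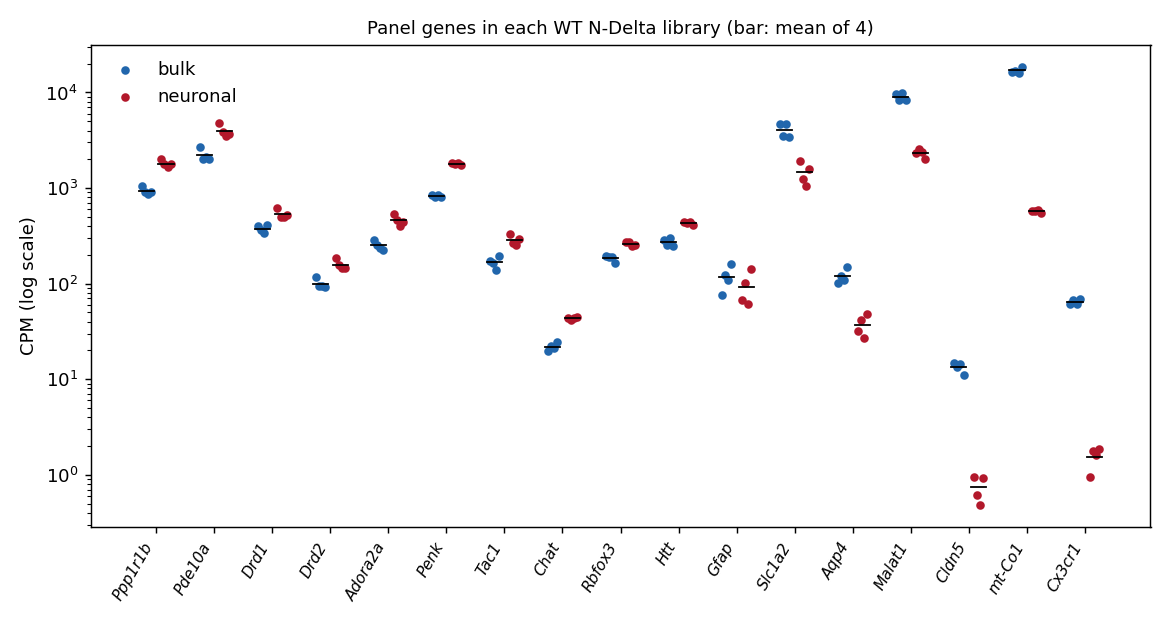
CPM (log scale) of 17 panel genes in each of the 4 bulk (blue) and 4 neuronal (red) WT N-Delta libraries, with the mean as a bar. Neuronal genes lie slightly above their bulk values, Gfap overlaps, and Cldn5, mt-Co1 and Cx3cr1 fall by more than 10-fold.

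Cholinergic interneuron genes had the highest median of all lists described, 0.775, with 11 of 15 higher and 1 lower. Chat, which makes acetylcholine, was at 19.7, 22.4, 21.2 and 24.5 CPM in bulk and 43.5, 41.8, 43.4 and 45.2 in neuronal libraries (0.98 ± 0.13, adjusted p = 5.3e-07). Slc18a3, the vesicular acetylcholine transporter, was at 5.79, 5.37, 6.76 and 4.98 CPM in bulk and 12.9, 11.8, 13.8 and 18.7 in neuronal libraries (1.32 ± 0.20). Tacr1, the receptor for substance P, was higher by 1.21 ± 0.18 and Slc17a8, a vesicular glutamate transporter of these cells, by 1.08 ± 0.16. These 3 were among the 5 markers at least 2-fold higher, and for each of the 3 no bulk library reached any neuronal one. Of the GABAergic interneuron genes 10 of 22 were higher and 2 lower (median 0.511). Nos1, neuronal nitric oxide synthase, was at 120.4, 77.8, 124 and 88.8 CPM in bulk and 263, 227, 225 and 243 in neuronal libraries (1.22 ± 0.18). Kit, a receptor tyrosine kinase, was higher by 1.08 ± 0.12, Lhx6, a transcription factor of interneurons that arise in the medial ganglionic eminence, by 0.88 ± 0.19 and Kcnc1, a fast potassium channel, by 0.73 ± 0.15. Vip, a neuropeptide, went the other way, from 3.4, 3.2, 5.04 and 3.66 CPM in bulk to 1.41, 1.65, 1.53 and 1.75 in neuronal libraries (-1.26 ± 0.29).

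Genes of neurons whose cell bodies lie outside the striatum gave medians nearer to or below 0, with members in both directions. Among cortical excitatory markers 6 of 25 were higher and 4 were lower, beside 26.3% and 29.6% of all genes tested. The other 15 were not called. The list median of -0.0168 changed sign with no filter on low counts (0.0151) and without bulk library 2 (0.0262). Nrgn, neurogranin, and Ptk2b, a calcium-activated kinase, which projection neurons also express, were higher by 0.73 ± 0.13 and 0.82 ± 0.11. Lower were Rorb, a nuclear receptor, at -1.38 ± 0.20 (67.8, 50.7, 64.8 and 56.4 CPM in bulk and 20.4, 18.5, 19.6 and 33.5 in neuronal libraries), and Emx2, a homeobox factor, at -1.86 ± 0.32. Slc17a7, the cortical vesicular glutamate transporter, named after its values were seen, overlapped between the groups at 98.7 to 238 CPM in bulk and 116 to 182 in neuronal libraries (-0.19 ± 0.37, adjusted p = 0.674). The summed level of the cortical markers was nevertheless higher in every neuronal library (2299 to 2749 CPM) than in every bulk library (1506 to 2050), at 138% of the bulk mean. A sum weighs abundant genes most, and what Nrgn, Ptk2b or any other single member adds to it was not worked out. Their median was -0.496 in WT N-ZFP, 0.271 in zQ175 N-Delta and -0.397 in zQ175 N-ZFP mice. Of 12 markers of midbrain dopamine neurons, whose axons end in the striatum, 6 were tested, of which 3 were lower and 1 higher (median -0.291). The higher one was Th, tyrosine hydroxylase, which makes the precursor of dopamine, at 9.01, 6.5, 4.29 and 7.6 CPM in bulk and 12.1, 10.9, 10.4 and 13.3 in neuronal libraries (0.77 ± 0.29, adjusted p = 0.0267), a call lost without neuronal library 4 (0.72) and without bulk library 2 (0.76) or 3 (0.62). Th is also on the list of GABAergic interneuron genes. Aldh1a1, a retinal dehydrogenase, was lower, at -1.88 ± 0.18, from 24.4, 31.6, 26.5 and 36.3 CPM in bulk to 8.83, 6.61, 6.69 and 10 in neuronal libraries, and Ddc, aromatic amino acid decarboxylase, at -1.16 ± 0.29.

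Genes used by most neurons were higher in 30 of 35 cases and lower in 1 (median 0.596). Rbfox3, whose product is the nuclear antigen NeuN, was at 193, 191, 189.7 and 166 CPM in bulk and 275, 272, 246 and 253 in neuronal libraries (0.50 ± 0.08). The intermediate filament genes Nefm (1.28 ± 0.18), Ina (1.14 ± 0.18) and Nefl (0.75 ± 0.12) were higher as well. Kif5a, a kinesin motor of axonal transport, was the lower one. It was at 3049, 2809, 2981 and 2964 CPM in bulk and 1434, 1721, 1607 and 1688 in neuronal libraries, so every bulk library exceeded every neuronal one (-0.87 ± 0.16, adjusted p = 3.38e-05).

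The synapse was covered on both sides. Presynaptic genes were higher in 26 of 30 cases and lower in none (median 0.648), and postsynaptic genes in 24 of 32 with 1 lower (median 0.578). Syn1 was at 223, 262, 261 and 234 CPM in the neuronal libraries, against the bulk values given above (1.29 ± 0.19). Slc32a1, the vesicular GABA transporter, was higher by 1.07 ± 0.16 and Sv2c, a vesicle protein concentrated in basal ganglia, by 0.98 ± 0.12. On the receiving side, Dlg4, the scaffold PSD-95, was higher by 0.89 ± 0.12, Ppp1r9a, neurabin, by 0.73 ± 0.08 and Baiap2, a regulator of spine actin, by 0.65 ± 0.10. Homer3, a scaffold related to Homer1, was lower, from 8.27, 8.01, 6.65 and 7.79 CPM in bulk to 3.19, 3.41, 2.29 and 2.3 in neuronal libraries (-1.46 ± 0.20).

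Receptor and channel genes followed, with exceptions that separate family members. Of glutamate receptor genes 12 of 23 were higher and 2 lower (median 0.39). The NMDA receptor subunit genes Grin2b (1.05 ± 0.14), Grin2a (0.74 ± 0.08) and Grin1 (0.70 ± 0.09) were higher. Grin2c, a subunit that astrocytes also express, was at 47.4, 44.3, 42.3 and 42.4 CPM in bulk and 11.9, 13.4, 10.9 and 17.3 in neuronal libraries (-1.72 ± 0.15, adjusted p = 4.38e-10). GABA receptor genes were higher in 9 of 14 cases and lower in none (median 0.325), with Gabrb2 at 0.72 ± 0.14 and Gabbr1 at 0.43 ± 0.10. Among ion channels 35 of 41 were higher and 2 lower (median 0.55). Scn8a and Scn2a, sodium channels of the axon initial segment, were higher by 0.81 ± 0.11 and 0.71 ± 0.09. Kcnj10, the astrocytic potassium channel Kir4.1, was lower, at -1.27 ± 0.17, from 110.3, 82, 112 and 80.2 CPM in bulk to 40.6, 39.3, 28.9 and 50.3 in neuronal libraries.

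Immediate early genes, which neuronal activity induces, split by member. In all 14 of 30 were higher and 5 lower (median 0.478). Egr1, a zinc-finger factor, was at 108, 88.1, 102 and 75.5 CPM in bulk and 220.4, 247, 208 and 202 in neuronal libraries (1.23 ± 0.18), Egr3 was higher by 1.201 ± 0.15 and Per1, also a clock gene, by 1.10 ± 0.13. The Krüppel-like factors went down, with Klf6 at -0.69 ± 0.11 and Klf4 at -2.24 ± 0.47 (from 1.65, 1.98, 2.47 and 2.72 CPM in bulk to 0.376, 0.516, 0.573 and 0.368 in neuronal libraries). Klf2, which endothelial cells express strongly, was at 1.84, 3.2, 2.47 and 3.19 CPM in bulk and 0.376, 0.206, 0 and 0.644 in neuronal libraries (-3.06 ± 0.53, and -3.68 without neuronal library 4).

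Microglial genes had the lowest median of all lists. All 30 markers tested were lower, 24 of them at least 8-fold, with a median of -4.97. The summed level of these markers of microglia was 860.4, 1070.0, 1005 and 1183 CPM in bulk libraries 1 to 4 and 77.6, 106, 108 and 134 in neuronal ones, which left 10.3% of the bulk mean. C1qa, a subunit of the first complement component, was at 44.2, 58.4, 56.5 and 66.3 CPM in bulk and 0.282, 1.03, 0.669 and 0.828 in neuronal libraries (-6.31 ± 0.28), and Cx3cr1, the fractalkine receptor, at 60.9, 66.7, 61.4 and 69.5 CPM in bulk and 0.94, 1.75, 1.62 and 1.84 in neuronal libraries (-5.38 ± 0.40). For C1qa and Cx3cr1 every neuronal library lay under 2 CPM. Ctss, a lysosomal protease gene (ENSMUSG00000038642; chromosome 3, 95526786 to 95556403, GRCm38), had the largest change of the list, -6.59 ± 0.31, and -7.19 without neuronal library 4. Cd68, a lysosomal glycoprotein of phagocytes named after its values were seen, had the smallest, -0.46 ± 0.18, and its call was lost without neuronal library 2 (-0.40) or 3 (-0.35), without bulk library 1 (-0.42), 2 (-0.46) or 4 (-0.35) and with no filter on low counts (-0.43). In whole-tissue RNA, fewer cells of a type and less RNA per cell cannot be told apart, and the same holds for what the neuronal preparation leaves behind.

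Blood and vessel genes followed. All 5 blood markers tested of 7 were lower (median -4.63), with Hbb-bs, adult beta globin, at 26.7, 29.1, 24.2 and 36.9 CPM in bulk and 0.47, 0.31, 0.287 and 1.1 in neuronal libraries (-5.70 ± 0.46, and -6.29 without neuronal library 4). Endothelial markers were lower in 24 of 26 cases and higher in none (median -3.17). Cldn5, the tight-junction protein claudin 5, was at 14.8, 13.4, 14.6 and 11 CPM in bulk and 0.94, 0.619, 0.478 and 0.92 in neuronal libraries (-4.15 ± 0.34), and Pecam1, an adhesion protein, at -4.31 ± 0.32. Flt1, a receptor for vascular endothelial growth factor, was at 37.1, 34.9, 35.1 and 32.2 CPM in bulk and 3.19, 4.23, 2.58 and 3.5 in neuronal libraries (-3.37 ± 0.31). The summed endothelial level kept 53% of bulk, or 22.6% without Bsg, a membrane glycoprotein gene picked out for its level, that was not called and was at 174 CPM in bulk on average and 189 in neuronal libraries. Markers of pericytes, smooth muscle and fibroblasts were lower in 18 of 21 cases (median -1.9). Rgs5, a pericyte G-protein regulator, was lower, at -1.81 ± 0.16 and Pdgfrb, the pericyte growth factor receptor, at -1.41 ± 0.13, while Dcn, the fibroblast proteoglycan decorin, was lower, at -3.71 ± 0.37 (-4.41 without neuronal library 3).

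The oligodendrocyte lineage was lower at both stages described. Precursor markers were lower in 15 of 18 cases and higher in 1 (median -2.16). Pdgfra, the growth factor receptor that defines precursors, was at 59.4, 67.2, 63.1 and 70.1 CPM in bulk and 4.98, 5.26, 5.83 and 4.33 in neuronal libraries (-3.67 ± 0.27). Gpr17, a receptor of committed precursors, was at 34.7, 34.3, 32.8 and 34.7 CPM in bulk and 0.94, 2.89, 2.1 and 1.56 in neuronal libraries (-4.19 ± 0.33). Olig2, a factor of the whole lineage, was lower, at -2.22 ± 0.19. Cacng4, an AMPA receptor auxiliary subunit, was the 1 higher gene (0.64 ± 0.16). All 33 genes of mature oligodendrocytes and myelin were lower, 32 of them at least 2-fold and none 8-fold (median -1.68). Mbp, myelin basic protein, was at 2578, 2838, 2354 and 3047 CPM in bulk and 711, 776, 584 and 928 in neuronal libraries (-1.85 ± 0.15). The groups were apart, yet the gene was not near 0 in any neuronal library. The list's summed level kept 30.7% of the bulk mean.

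Astrocyte genes had the smallest median change of the glial lists in the plot of marker sums. Of 42 homeostatic markers 41 were lower, 35 of them at least 2-fold and none 8-fold (median -1.53), and the summed level kept 39.8% of bulk. Slc1a2, the main astrocytic glutamate transporter, was at 4716, 3498, 4727 and 3395 CPM in bulk and 1919.8, 1246, 1063 and 1601 in neuronal libraries (-1.49 ± 0.16). Slc1a3, the other one, was at 396, 459, 431 and 488 CPM in bulk and 145, 112, 94.9 and 154 in neuronal libraries (-1.81 ± 0.13), and Aqp4, the water channel of astrocyte endfeet, at 100.4, 119.6, 109 and 151 CPM in bulk and 31.9, 41.4, 27 and 48 in neuronal libraries (-1.69 ± 0.18). Neuronal library 3 was the lowest of its kind in all 3. Slc7a11, a cystine transporter, was lower, at -2.16 ± 0.14 and S1pr1, a sphingolipid receptor, at -2.07 ± 0.16. Slc4a4, a bicarbonate transporter, was the 1 higher member (0.25 ± 0.10, adjusted p = 0.0282). Its groups overlapped, and the call was lost when only library totals were used, when scaled on nuclear protein-coding genes, without neuronal library 1 (0.19), without bulk library 2 (0.22) or 4 (0.24), and with offsets for length and GC, where the value was -0.01. Of 32 reactive astrocyte genes 23 were tested, of which 13 were lower and 2 higher (median -0.855). Gfap, the intermediate filament of reactive astrocytes, was at 76.7, 122, 108 and 161 CPM in bulk and 67, 102, 60.8 and 141 in neuronal libraries. These groups overlapped and the gene was not called (-0.33 ± 0.27, adjusted p = 0.296). With the replicate number as a block on the 8 libraries alone, Gfap was called lower, as given in the last section. Stat3, a signalling factor, and Cd44, a hyaluronan receptor, were higher by 0.47 ± 0.09 and 0.96 ± 0.22, while Cp, the copper oxidase ceruloplasmin, was lower, at -2.54 ± 0.20.

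**Figure D3:**
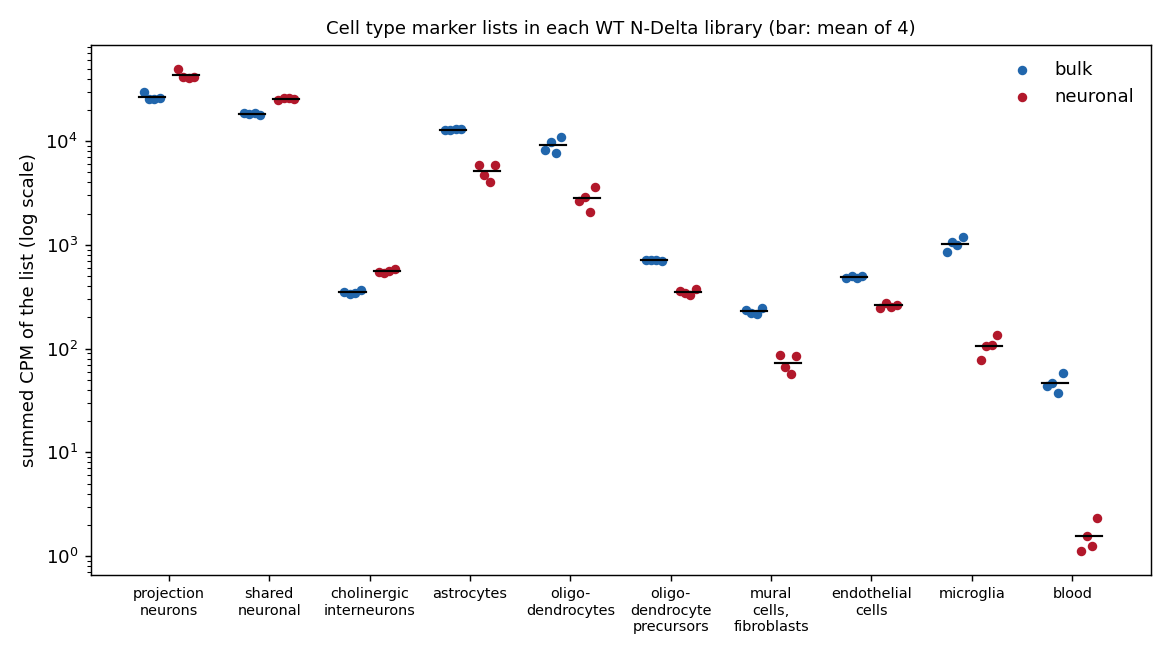
Summed CPM (log scale) of 10 cell type marker lists in each of the 4 bulk (blue) and 4 neuronal (red) WT N-Delta libraries, with the mean as a bar. The 2 kinds are apart for every list shown, and the neuronal libraries keep 39.8% of the bulk level for astrocytes, 30.7% for oligodendrocytes, 10.3% for microglia and 3.34% for blood.

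The order of the lists was therefore microglia, blood, endothelial cells, precursors, mural cells, mature oligodendrocytes and astrocytes, by median change. It is given as a description, since the lists differ in how specific their genes are. Markers of ependyma and choroid plexus did not belong to this order, with 1 of 17 higher, none lower and 16 not called (median 0.389). In the other animals of the study 6 (WT N-ZFP, median 0.595), 2 (zQ175 N-Delta, 0.324) and 9 (zQ175 N-ZFP, 1.06) of the 17 were higher and none lower. Genes of the interferon response and antigen presentation were lower in 16 of 26 cases and higher in none (median -0.842). B2m, the invariant chain of class I molecules, was at 56.6, 76.7, 61.5 and 83.5 CPM in bulk and 18.6, 16.6, 15 and 17.9 in neuronal libraries (-2.03 ± 0.20), and H2-K1, a class I heavy chain, was lower, at -1.73 ± 0.24.

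RNA of mitochondria was far lower in the neuronal libraries than in bulk. Mitochondrial ribosomal RNA made up 8.217 to 9.2% of the bulk totals and 0.07977 to 0.1073% of the neuronal ones, and mitochondrially encoded messengers 2.435 to 2.582% and 0.08722 to 0.1094%. All 12 of the messenger genes tested, of 13, were at least 8-fold lower (median -4.23), and their summed level kept 4.23% of bulk. Most of that level was mt-Co1, a subunit of cytochrome oxidase, at 16421, 16959, 16073 and 18671 CPM in bulk and 580.3, 579.5, 587 and 550.1 in neuronal libraries (-4.89 ± 0.46, adjusted p = 1.06e-09). Without it the summed level kept 6.01%. The ribosomal RNAs mt-Rnr1 and mt-Rnr2 were lower, at -6.50 ± 0.63 and -6.41 ± 0.65, or at -5.83 and -5.75 with offsets for length and GC. Near-identical copies of mitochondrial sequence lie in the nuclear genome, and how the authors counted reads that fit more than 1 place is not given in the sources used here, so the levels of single mitochondrial genes are uncertain.

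Nuclear genes for the same respiratory complexes were more often higher than lower. Of 74 tested, 34 were higher, 4 were lower and 36 were not called (median 0.291). Ndufs1, a core subunit of complex I, was at 139, 149.6, 138 and 156 CPM in bulk and 219.8, 218, 219.9 and 221 in neuronal libraries (0.59 ± 0.10), Sdha of complex II was higher by 0.55 ± 0.13 and Uqcrc1 of complex III by 0.61 ± 0.14. Cox7c, a small subunit of complex IV, was lower (-0.78 ± 0.18), a call that offsets for transcript length and GC removed (-0.26).

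**Figure D4:**
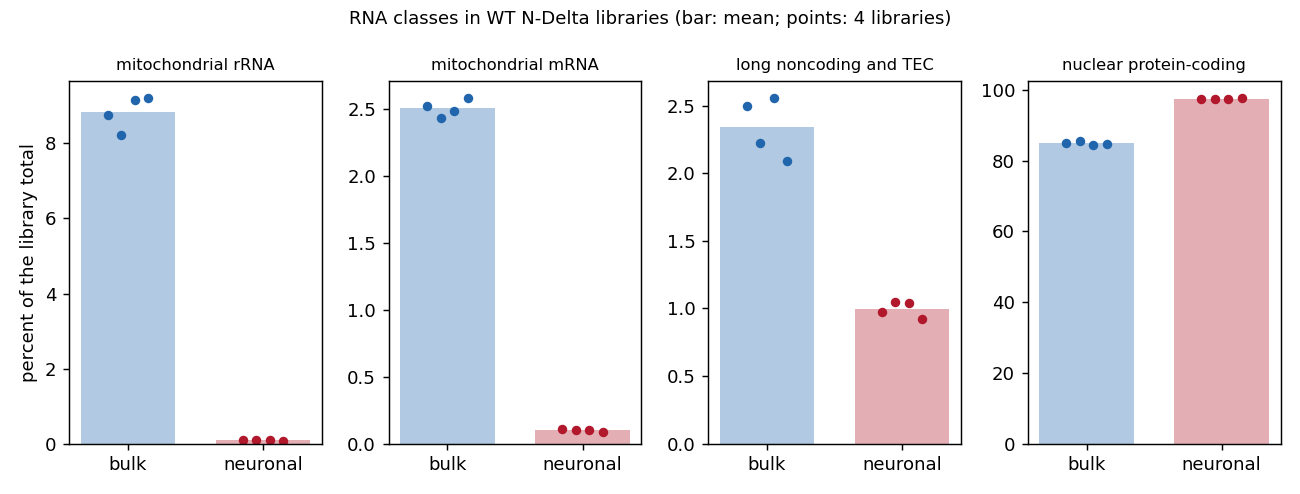
Share of the library total (percent, 4 panels with their own axes from 0) taken by mitochondrial ribosomal RNA, mitochondrial messengers, long noncoding RNA with unverified transcripts (TEC) and nuclear protein-coding genes, in the 4 bulk and 4 neuronal WT N-Delta libraries. Bars are means. The neuronal libraries hold 97.39 to 97.61% nuclear protein-coding counts against 84.5 to 85.66% in bulk.

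Several noncoding classes had far more lower than higher genes. Genes that are not annotated as protein-coding were 20.3% of those tested and 28.6% of those lower. Of 1067 unverified transcripts (TEC) 557 were lower and 3 higher (median -1.34), of 404 long intergenic RNAs 191 and 15 (median -0.845), of 341 antisense RNAs 156 and 8 (median -0.741) and of 131 sense intronic RNAs 76 and 1 (median -1.52). Processed pseudogenes did not follow, with 192 of 966 lower and 201 higher (median 0.133). For protein-coding genes the counts were 3737 lower and 4384 higher of 14116. Level was not matched in these counts, and of the 3541 genes least abundant in bulk 1250 were lower and 121 higher. The kit was stranded, but whether counting used the strand is not stated, so antisense and intronic genes cannot be told from the genes they overlap. Among 26 tested long noncoding RNAs known mainly from the nucleus 20 were lower and 1 was higher (median -1.36). Malat1, a component of nuclear speckles, was at 9726, 8346, 9809 and 8365 CPM in bulk and 2342, 2561, 2373 and 2024 in neuronal libraries (-1.96 ± 0.44). Rian, an imprinted transcript of neurons, was at 609.6, 604, 618 and 624 CPM in bulk and 139.5, 126, 148 and 124 in neuronal libraries (-2.19 ± 0.31), and Neat1, the scaffold of paraspeckles, at 130.4, 106, 103 and 96.3 CPM in bulk and 23.5, 31.8, 18.5 and 22.5 in neuronal libraries (-2.18 ± 0.38). All 3 were apart between the groups. Peg13, another imprinted noncoding RNA, was the higher one, at 280.4, 246, 275 and 252 CPM in bulk and 507, 477, 477 and 495 in neuronal libraries (0.89 ± 0.12).

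Small structural RNAs and their hosts were lower too. All 8 small RNAs tested, of 17, were lower (median -3.16). Rmrp, the RNA of a ribonuclease that processes ribosomal RNA, was at 94.1, 152, 70.2 and 176 CPM in bulk and 2.26, 3.41, 2.1 and 1.56 in neuronal libraries (-5.73 ± 0.43). Rn7s2, a copy of the signal recognition particle RNA, was lower, at -3.77 ± 0.24 and shares its sequence with other copies. Bulk libraries 2 and 4 were the higher ones for both. Of 15 host genes of small nucleolar RNAs, whose spliced transcripts are cytoplasmic, 13 were lower and 1 higher (median -1.61), among them Snhg6 (-1.82 ± 0.19) and Zfas1 (-1.49 ± 0.23). Genes for splicing and export proteins were lower in 19 of 32 cases and higher in 3 (median -0.358). Clk1 and Clk4, kinases of splicing factors, were lower, at -1.38 ± 0.31 and -1.19 ± 0.26, and Ptbp1, a splicing repressor that neurons silence, was lower, at -1.10 ± 0.17, from 22.2, 21.5, 23.4 and 21.7 CPM in bulk to 11.1, 10, 9.46 and 10.9 in neuronal libraries. Srrm2, a speckle protein, was higher by 0.66 ± 0.12.

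Messengers for the ribosome itself were lower nearly throughout. Of 79 genes for cytosolic ribosomal proteins 74 were lower, 1 was higher and 4 were not called, with a median of -1.05. Rplp1, a protein of the ribosomal stalk, was at 263, 310.1, 267 and 308 CPM in bulk and 63, 74.9, 75.1 and 73.9 in neuronal libraries (-2.002 ± 0.13, adjusted p = 5.35e-13), and Rpsa, of the small subunit, at 135, 141, 128 and 138 CPM in bulk and 54.7, 56.4, 60.2 and 70.5 in neuronal libraries (-1.17 ± 0.09). Rpl32 (-1.21 ± 0.09) and Rps21 (-1.44 ± 0.11) were lower as well. Many of these genes have processed pseudogenes of nearly the same sequence, so their levels are uncertain where reads could be split. Ribosomal protein messengers are known for a run of pyrimidines at their very start, which couples their translation to growth signals. The windows below run from 15 bases before to 15 bases after the start that RefSeq annotates on GRCm38.p6, and are shown because the members moved together. Capitals mark a C followed by 4 or more bases that are each C or T and that begins within 3 bases of the start, read on the gene's strand.
Rpl12 (chr2:32961697-32961726, plus strand): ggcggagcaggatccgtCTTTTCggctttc
Rpl22l1 (chr3:28805493-28805522, plus strand): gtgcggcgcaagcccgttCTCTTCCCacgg
Rps27 (chr3:90213634-90213663, minus strand): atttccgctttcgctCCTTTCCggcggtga
Rps18 (chr17:33955651-33955680, minus strand): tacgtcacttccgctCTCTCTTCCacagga
Rps13 (chr7:116334176-116334205, minus strand): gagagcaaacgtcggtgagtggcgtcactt
Such a run was found in 25 of the 58 ribosomal protein genes with an annotated start (43.1%) and in 13.5% of 27025 genes of all kinds. Rps13 is shown as one without a match. The median log2 change was -0.947 in the 25 with a match and -1.108 in the 33 without. Only runs within 3 bases of the annotated start were counted, so a gene without a match may carry a run nearby. These sequences were chosen for the presence or absence of the run. Rpl12 was lower, at -2.17 ± 0.35 and Rps13 at -1.91 ± 0.40, both among the larger changes of the family.

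Rpl22 was the 1 ribosomal protein gene that was higher. It encodes a protein of the large subunit and lies on chromosome 4, 152325742 to 152334071 (GRCm38; ENSMUSG00000028936). It was at 697, 434, 484 and 927 CPM in bulk and 2239, 1628, 1567 and 2105 in neuronal libraries, without overlap (1.57 ± 0.56, 2.97-fold, adjusted p = 0.0187). Both kinds varied, and without bulk library 2 the adjusted p was 0.0514 (1.44). Its processed pseudogene Rpl22-ps1, was higher by 1.63 ± 0.51, and reads of the 2 could be split between them. The summed level of the 78 other ribosomal protein genes kept 52.9% of bulk, and that of all 79 kept 85.9%. In the other animals of the study Rpl22 was higher by 2.58 ± 0.65 (WT N-ZFP), 1.79 ± 0.56 (zQ175 N-Delta) and 2.37 ± 0.58 (zQ175 N-ZFP). Translation factors, by contrast, were divided, with 14 of 37 higher and 8 lower (median 0.191), beside 26.3% higher and 29.6% lower of all genes tested. Eef1a1, the elongation factor of most tissues, was at 1482, 1644, 1416 and 1810.3 CPM in bulk and 954, 935, 988 and 967 in neuronal libraries (-0.72 ± 0.08), while Eef1a2, its form in adult neurons and muscle, was at 562, 595, 544 and 546 CPM in bulk and 854, 939, 909 and 925 in neuronal libraries (0.69 ± 0.12). Eif4g1, an initiation scaffold, was higher by 0.68 ± 0.09.

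Of glycolytic genes 14 of 20 were higher and 4 lower (median 0.46). Eno2, the neuronal enolase, was at 753, 764, 735 and 730.0 CPM in bulk and 1315, 1349.8, 1314 and 1315 in neuronal libraries (0.83 ± 0.13), and Slc2a3, the neuronal glucose transporter, was higher by 0.46 ± 0.09. Aldoc, the astrocytic aldolase, was at 517, 608, 562 and 647 CPM in bulk and 192, 183, 166 and 251 in neuronal libraries (-1.56 ± 0.23), and Slc2a1, the glucose transporter of endothelium and glia, was lower, at -0.90 ± 0.13. Gapdh was lower, at -1.82 ± 0.39 but was listed at only 10.7 CPM in bulk, and it has many pseudogene copies. Chaperones of the endoplasmic reticulum and cytosol were higher in 13 of 34 cases and lower in 1 (median 0.241), with Hsph1, a heat-shock protein, at 0.82 ± 0.09 and Hyou1, of the endoplasmic reticulum, at 0.77 ± 0.10. Cholesterol synthesis genes were higher in 6 of 27 cases and lower in 5, beside 26.3% and 29.6% of all genes tested. The other 16 were not called, and the list median of -0.0149 changed sign in several fits, for example to 0.036 without bulk library 1. Lss, an enzyme of the pathway, was lower, at -0.32 ± 0.08.

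Histone genes held the largest gains among the genes reported here by the rule for extremes. Of 30 tested histone genes of 40 listed, 17 were higher and 1 lower (median 0.571). Outside that list, Hist2h2bb, an H2B gene (ENSMUSG00000105827; chromosome 3, 96269752 to 96270132, GRCm38), was at 3.77, 6.31, 4.08 and 7.98 CPM in bulk and 20.4, 21.4, 18.8 and 17.6 in neuronal libraries (1.81 ± 0.20, adjusted p = 2.47e-08). Hist4h4, an H4 gene of the list, was at 1.75, 3.49, 2.57 and 4.69 CPM in bulk and 11.7, 13.1, 7.64 and 10.3 in neuronal libraries (1.76 ± 0.28). The H4 genes Hist1h4h, of the list (1.42 ± 0.24), and Hist1h4f, outside it (1.35 ± 0.18), were higher too, but H4 genes are near-identical copies and their single values are uncertain. Most histone messengers lack a poly(A) tail, and the libraries were made from total RNA. Hist2h2be, another H2B gene, was the lower one, from 6.9, 7.44, 4.61 and 7.79 CPM in bulk to 2.91, 1.44, 1.91 and 2.3 in neuronal libraries (-1.63 ± 0.28).

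By the rule for extreme genes, which required 2 CPM or more on average and groups that were apart, the other highest genes included Pianp, a neuronal membrane protein (1.35 ± 0.17), and Hcfc1, a transcription coregulator. Hcfc1 was at 142, 119, 139 and 111 CPM in bulk and 319, 367, 314 and 268 in neuronal libraries (1.31 ± 0.52, adjusted p = 0.0332). That call was lost without neuronal library 2 (1.25), without bulk library 2 (1.30), 3 (1.37) or 4 (1.25), with only library totals (1.23), when scaled on nuclear protein-coding genes (1.24) and with offsets for length and GC (0.95). In the zQ175 N-ZFP mice the same gene was higher by 4.58 ± 0.59. The lowest genes by the rule were of microglia, mitochondria and antibody-producing cells. Igkc, the constant part of the kappa light chain, was at 40.8, 40.2, 33.6 and 105 CPM in bulk and 0.376, 0.413, 0.573 and 1.1 in neuronal libraries (-6.44 ± 1.08). Bulk library 4 held the most Igkc and library 3 the least. Of the 348 genes at least 8-fold lower, 250 were protein-coding, 208 had a mean under 2 CPM over the 8 libraries and 107 had at most 3 counts in the 4 neuronal libraries together. The fold of those 107 is not given. The 144 genes at least 2-fold higher comprised 107 protein-coding genes and 37 others, and 42 of them had a mean under 2 CPM.

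Transcript length went weakly with the change. Over 14098 protein-coding genes the Spearman correlation of the log2 change with transcript length was 0.106 and with coding length 0.108, a description across genes that share these libraries. The median was 0.222 in the 870 genes over 8000 bases, where 418 were higher and 189 lower, and 0.0124 in the 3054 genes of 2000 to 3000 bases. With offsets for length and GC content 4260 genes were higher and 5322 lower.

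The same contrast in the other 3 groups of injected mice, which share no library with WT N-Delta, gave fewer calls, mostly in the same direction. In WT N-ZFP mice (4 neuronal and 3 bulk libraries) 3748 genes were higher (21.2%) and 3814 lower (21.5%), together 42.7%. Of these, 3320 and 3432 were also called in WT N-Delta, which is 88.6% and 90% of the WT N-ZFP calls and 71.4% and 65.5% of the WT N-Delta calls. In zQ175 N-Delta mice 4459 were higher (25.2%) and 4389 lower (24.8%), together 50%, with 3853 and 3910 called in both. In zQ175 N-ZFP mice 3009 were higher (17%) and 2669 lower (15.1%), together 32.1%, with 2321 and 2148 called in both. Of the genes higher in WT N-Delta, 7, 2 and 13 were called lower in these 3 groups, and of the genes lower there 0, 0 and 13 were called higher. All 4 groups together gave the same call for 2052 higher and 1928 lower genes. All libraries were fitted together and share 1 estimate of the spread.

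List medians varied little across the animals for some lists and more for others. Projection neuron markers had medians of 0.707 in WT N-Delta, 0.457 in WT N-ZFP, 0.581 in zQ175 N-Delta and 0.55 in zQ175 N-ZFP, and astrocyte markers of -1.53, -1.9, -1.35 and -1.6. Mitochondrially encoded genes had medians of -4.23, -2.95, -3.91 and -1.26, and long noncoding RNAs of -1.36, -0.762, -0.955 and -0.0649. Neuronal libraries 1 and 3 of zQ175 N-ZFP held 1.199% and 1.974% mitochondrial messengers and totals (6524661 and 4610476 counts) smaller than those of the other 2 neuronal libraries of that group, and those of WT N-ZFP held 0.338% and 0.5118%. Without libraries 1 and 3 of zQ175 N-ZFP, that group gave 4738 higher and 4670 lower genes. The part of these libraries in the list medians was not tested.

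**Figure D5:**
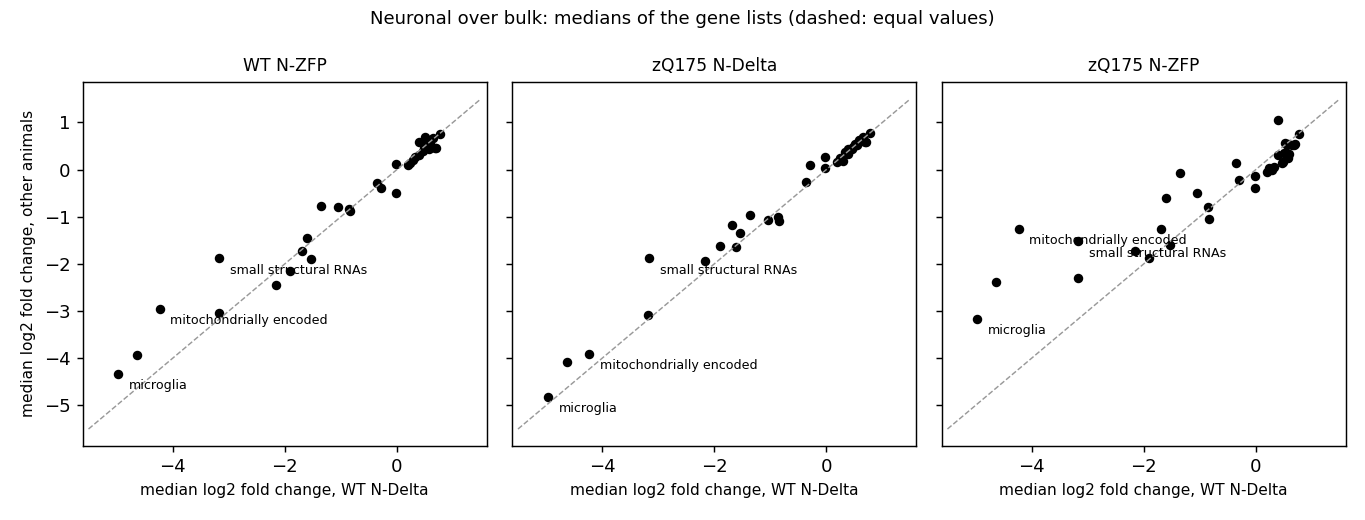
Median log2 fold change of neuronal over bulk RNA for each of the 36 gene lists in WT N-Delta mice (x axis) and in 3 other groups of mice (y axis, 1 panel each). Points on the dashed line have equal medians. Mitochondrially encoded genes lie above the line in all 3 panels, at -2.95, -3.91 and -1.26 against -4.23.

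The difference in enrichment itself was tested for both pairs of groups that differ from WT N-Delta in 1 factor. Between zQ175 N-Delta and WT N-Delta no gene reached the threshold by edgeR (0%), with 562 genes at an unadjusted p under 0.05, while DESeq2 called 1 higher and 6 lower. Between WT N-ZFP and WT N-Delta 5 genes did (0.0282%), all less enriched under N-ZFP. Tceal6, a gene of the transcription elongation factor A-like family, was higher by 0.64 ± 0.12 in WT N-Delta and changed by -0.85 in WT N-ZFP, a difference of -1.48 ± 0.18 (adjusted p = 8.98e-05). Dach1, a transcription regulator, was at 0.60 ± 0.13 and -0.58 (difference -1.18 ± 0.19, adjusted p = 0.00377). Lysmd2 differed by -0.86 ± 0.16, Acsl1, an acyl-CoA synthetase, by -0.68 ± 0.10 and Mzt2, a component of the microtubule-nucleating complex, by -1.50 ± 0.24. With libraries 1 and 3 of both N-ZFP groups left out the count was 16, which included these 5. With the replicate number as a block it was 6, of which 3 were among these 5.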

How the data were processed

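RNA-seq libraries were made from striatal total RNA with a stranded total RNA kit, per the labels' protocols. The deposited table holds raw counts per Ensembl gene, made by the authors with STAR and HTSeq on mm10, per the submitters' processing notes. Versions, the strand setting and the treatment of reads with several matches are not given in the sources used here. Of 48795 genes, 48435 were matched to GENCODE M21 (GRCm38) for names and coordinates, and 360 were not. Start sequences are from RefSeq (GRCm38.p6).

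Counts of 31 libraries (WT and zQ175, N-Delta and N-ZFP, bulk and neuronal) were fitted together with edgeR 4.0.16 in R 4.3.3, with TMM scaling, filterByExpr by group, the quasi-likelihood test and Benjamini-Hochberg adjustment over the 17702 genes tested. SE is the log2 fold change divided by the root of F. The procedure was tested on simulated data. Alternatives were DESeq2 1.42.0, other scalings and filters, offsets, a replicate block and leaving out libraries. Totals were 9475429 to 11684286 counts in the 8 WT N-Delta libraries and 4610476 to 12200813 in all 31.

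The members and gene lists were chosen with earlier results of these data known. Genes named are a fixed panel, of each list up to 5 members with the smallest p in its main direction and up to 3 called the other way, 12 genes at either extreme that were called, averaged 2 CPM or more and had groups apart (predicted genes left out) and up to 6 called genes of each difference between groups, or are said to be chosen after their values were seen. Some genes that this rule names are not reported here.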

Additional observations from a re-analysis of the deposited data

Results flagged for a closer look

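In 14 of the 274 combinations of a named gene and a group, 1 library of the 4 stood apart from the other 3. The cutoff would flag about 1 in 20 of independent, unselected combinations. The named genes share libraries and were partly chosen for groups that were apart, so that rate is only a rough guide. Among the bulk libraries, library 1 was high for Dach1 (120.9 CPM, the others 105.8 to 107), Drd2 (116.4, the others 91.7 to 95.6) and Slc17a8 (16.2, the others 10.4 to 10.9) and low for Lysmd2 (20.8, the others 24.7 to 25.4). Bulk library 3 was high for Nefm (69.5 CPM, the others 48.3 to 50.8). Bulk library 4 was high for Igkc (105.3 CPM, the others 33.6 to 40.8) and low for Rbfox3 (166.3, the others 189.7 to 193.2).

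Of the neuronal libraries, library 1 was high for Dach1 (203.9 CPM, the others 150.6 to 159.7) and Gabbr1 (1289, the others 1187 to 1196) and low for Rplp1 (63.05, the others 73.9 to 75.1). Neuronal library 2 was high for Eno2 (1350.0 CPM, the others 1314 to 1315). Neuronal library 4 was high for Rorb (33.5 CPM, the others 18.5 to 20.4) and Stat3 (89.6, the others 83.1 to 83.3) and low for mt-Rnr1 (94.1, the others 121.4 to 124).

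The enrichment of 5 genes differed between WT N-ZFP and WT N-Delta mice by a test of the difference itself. The differences in log2 fold change were -1.48 for Tceal6, -0.68 for Acsl1, -1.18 for Dach1, -1.50 for Mzt2 and -0.86 for Lysmd2. The cause was not tested.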

How the results depend on the processing

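Across scalings, filters, offsets, blocks and single libraries left out, the WT N-Delta counts stayed at 3817 to 4968 higher and 4588 to 5814 lower genes, and 4396 to 4586 and 4588 to 4954 when 1 library was left out. The test against a 2-fold change gave 2 higher and 1192 lower genes, by its own construction. The count at least 2-fold higher was 91 with library totals only and 95 when scaled on nuclear protein-coding genes, and 135 to 219 when 1 library was left out. Without neuronal libraries 1 and 3 of zQ175 N-ZFP, and of both N-ZFP groups, settings chosen after seeing the data, zQ175 N-ZFP gave 4738 and 4896 higher and 4670 and 4880 lower genes. WT N-Delta then gave 5287 and 5412 higher and 5997 and 6114 lower genes, outside the ranges above. The difference between zQ175 N-Delta and WT N-Delta gave 0 and 6 higher and 3 and 5 lower genes in these settings, 1 higher and 6 lower with DESeq2, 1 lower with DESeq2 size factors and 0 to 4 lower without single libraries. That between WT N-ZFP and WT N-Delta gave 8 and 16 lower genes in these settings, and 4 to 5 without single libraries. The cause was not tested. Of 137 named genes 129 kept their call in every alternative run other than the test against a 2-fold change, which this count leaves out. Slc4a4 was at -0.007308 with offsets for length and GC, and Gfap was called only with the replicate block on 8 libraries (-0.39, adjusted p = 0.00377).

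Neuronal and bulk libraries share numbers, and no label says whether the same number means the same animal. Same-numbered WT N-Delta libraries deviated together at correlations of 0.037 to 0.263 (mean 0.18, against -0.0596 for other pairs). The same-number means were also the higher ones in WT N-ZFP (0.1 against -0.0334), zQ175 N-Delta (0.0494 against -0.0163) and zQ175 N-ZFP (0.151 against -0.0497). The main fit did not take the numbers as pairs, and whether they are pairs was not settled. With the replicate block 4680 genes were higher and 5276 lower in 31 libraries, and 4968 and 5460 in 8. The difference between WT N-ZFP and WT N-Delta then gave 6 lower genes, of which 3 were among the 5 called without the block. Depth limits genes near 0 in neuronal RNA, where folds rest on few counts.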
